A study of Homo sapiens with 7 samples.

Results

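Histone genes were followed in 501Mel cells, an established human melanoma line, after knockdown of the long non-coding RNA GRASLND. The 70 genes were taken by their symbols from the 21305 genes of the table. The symbol rule used no measured value, but it was set with earlier results of these data known. The replication histone genes were the 63 genes with the family symbols of the histone clusters, namely 6 genes of H1, 16 of H2A, 16 of H2B, 12 of H3 and 13 of H4. The other 7 were the variant histone genes H2AX, H2AZ1, H2AZ2, MACROH2A1, MACROH2A2, H3-3A and H3-3B. A mean of at least 10 normalized counts over the 7 libraries was needed for a test, which 62 replication and 6 variant genes passed. H1-6, the testis linker histone, and MACROH2A2 lay under it and were only described.

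All cells carried a doxycycline-inducible lentiviral hairpin, had been selected with puromycin as pools of transduced cells, and received doxycycline for 3 days. The control hairpin shlacZ targets the bacterial gene lacZ (n = 3), and the hairpins sh4 (n = 2) and sh8 (n = 2) both target GRASLND. The labels do not match sh4 and sh8 to the names under which the target sequences are listed, and they do not say whether replicates were separate cultures, so p-values measure only the spread between these samples. Ribosomal RNA was removed before stranded libraries were made and no poly(A) selection is described, so that messages without a poly(A) tail could be read.

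A nucleosome is DNA wound around a core of H2A, H2B, H3 and H4, and H1 binds the linker DNA between nucleosomes. Replication histone genes are transcribed mainly in S phase, when new DNA must be packed, at nuclear bodies organised by NPAT. Their messages end in a short stem-loop, which is bound by SLBP and cut with the help of the U7 particle, and they lack a poly(A) tail. Variant histones are made throughout the cell cycle, mostly from spliced and polyadenylated messages, and replace core histones at particular places such as active promoters (H2A.Z), transcribed regions (H3.3), repressed chromatin (macroH2A) or DNA breaks (H2A.X).

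The depth recovered from the normalized counts was 13337317 to 22855232 reads per library. GRASLND lay between 290 and 330 normalized counts in the shlacZ libraries, between 131 and 175 under sh4 and between 163 and 227 under sh8, and fell in limma under sh4 (log2 fold change -1.02, adjusted p 0.00662) but not past the threshold under sh8 (-0.68, adjusted p 0.110). The first shlacZ library stood apart from the other controls, its counts giving a chi-square of 23.1 or more to either of them on average over genes, against 7.25 between them. The same measure was 16.2 between the sh4 libraries and 13.5 between the sh8 libraries. The melanocytic markers MITF, MLANA, PMEL, TYR, DCT, TYRP1 and SOX10 were all measured, and their summed count lay at 40.0% of the shlacZ mean under sh4 and at 73.9% under sh8. Of the 7, 6 fell under sh4, all but TYR, and their part in the histone values was not tested. Of 6 markers of fibroblasts, keratinocytes and leukocytes, only COL1A1 could be analysed, at 5.24 to 16.4 normalized counts.

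The replication histone genes were first checked for the sequence that sets their messages apart. In the GENCODE 44 transcripts on hg38, a 16-base stem-loop with 6 paired bases on each side of a loop of 4 was found within 150 bases after the stop codon in 60 of 63 replication genes and in 1 of 7 variant genes, H2AX. The search took only stems that open with GG, end with CC and close on a T-A pair, with a loop beginning with TT. Pairs of G and T were allowed, and a stem-loop outside this pattern was not counted. Among 11875 coding genes tested with such a window, 63 (0.531%) held a match, and only 3 of these were not histone genes taken here. In the histone genes, the stem-loop began 22 to 67 bases after the stop codon (median 36). The 60 genes and H2AX used 8 distinct sequences, of which 5 are shown 5′ to 3′ on the coding strand because they cover the core families and the variant, with the paired bases in capitals and the loop in lower case.
H2BC13: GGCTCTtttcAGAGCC
H2BC7: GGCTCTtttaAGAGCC
H4C4: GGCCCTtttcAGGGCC
H4C12: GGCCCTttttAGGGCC
H2AX: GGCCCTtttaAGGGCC
The sequence of H2BC13, at chr6:27807484-27807499, was shared by 37 genes of the H1, H2A, H2B and H3 families. That of H2BC7, at chr6:26199968-26199983, was found in 8 genes and differs in the loop. The H4 genes used a stem with more G and C, in 8 genes as in H4C4, at chr6:26188715-26188730, and in 4 genes as in H4C12, at chr6:27831178-27831193. The stem of H2AX, at chr11:119094898-119094913, was that of the H4 genes. The replication genes without a match to the search pattern were H1-10, a linker histone gene that is known to be transcribed outside S phase too, H3C6 and H4C13.

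By position, 48 of the 70 genes lay in the cluster on chromosome 6, between 26017032 and 27893891, 11 on chromosome 1 between 149782689 and 149887965, 2 further along chromosome 1, and 9 elsewhere. In the canonical transcript, 63 of 63 replication genes had a single exon, and 6 of 7 variant genes had several, with H2AX the exception. In 13 pairs, a gene on the minus strand and a gene on the plus strand were transcribed away from each other, with starts at most 1000 bases apart (median 240). Starts were the outer ends of the annotated genes. In 11 of these divergent pairs, an H2A gene lay beside an H2B gene. A further pair was H3C12 with H2BC17, 319 bases apart. The single-exon canonical transcript of H3C12 has 512 bases and its stem-loop at chr6:27890320-27890335. By that transcript H3C12 starts over 1000 bases from H2BC17, which is also paired with H2AC17.

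RefSeq promoters (GRCh38.p14), from 250 bases before to 50 after the start, were found for 58 replication genes and 7 variant genes. Where a member had several RefSeq starts, the one nearest the start of its canonical transcript was taken, and for all other genes the one listed first. The promoters were searched on both strands for the octamer ATTTGCAT, which POU2F1 binds, for CCAAT and for TATAAA, none of which contains another, although neighbouring matches can overlap. The octamer was present in 12 of 16 H2B and 10 of 15 H2A promoters, in 0 of 10 H3, in 0 of 6 H1 and in 0 of 11 H4 promoters, against 1.80% of 27305 promoters in all. CCAAT stood in 82.8% of the replication promoters and in 35.7% of all, and TATAAA in 67.2% of the replication promoters and in 3264 of 27305 promoters in all. The 250 bases before the start are shown for H2BC7, the H2B gene with the deepest fall under sh4, which shares this stretch with the divergent H2AC7, and for H4C4, whose promoter holds no octamer and no CCAAT. Both are 5′ to 3′ on the strand of the gene, with matches on either strand in capitals.
H2BC7: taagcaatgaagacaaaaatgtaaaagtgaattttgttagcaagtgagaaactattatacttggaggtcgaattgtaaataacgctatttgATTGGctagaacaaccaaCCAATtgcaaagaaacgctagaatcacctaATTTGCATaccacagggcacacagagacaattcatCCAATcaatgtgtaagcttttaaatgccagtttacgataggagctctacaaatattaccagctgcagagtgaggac
H4C4: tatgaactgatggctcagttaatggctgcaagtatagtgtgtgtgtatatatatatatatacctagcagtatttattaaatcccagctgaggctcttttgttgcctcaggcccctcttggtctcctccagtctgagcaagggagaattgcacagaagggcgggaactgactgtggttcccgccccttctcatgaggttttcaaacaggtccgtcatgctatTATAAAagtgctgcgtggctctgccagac
The first lies at chr6:26199266-26199515 on the plus strand and the second at chr6:26189113-26189362 on the minus strand. In H2BC7, the octamer began 111 bases before the start and the nearest CCAAT 76 bases before it. In H4C4, the match was a TATAAA beginning 29 bases before the start.

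The first comparison asked how histone messages stood under each hairpin, replication genes against variants. Summed over the 63 replication genes, the normalized count was 126431, 145156 and 137269 in the shlacZ libraries, 79222 and 76323 under sh4, and 96453 and 116937 under sh8. Both sh4 libraries lay under all other libraries, and both sh8 libraries lay between sh4 and shlacZ. The mean was 136285 ± 9401 (SD, n = 3) in shlacZ, 77773 ± 2049 (SD, n = 2) under sh4, or 57.1% of shlacZ, and 106695 ± 14484 (SD, n = 2) under sh8, or 78.3%. As a share of all reads, these genes took 0.761% ± 0.0148, 0.466% ± 0.0265 and 0.604% ± 0.0787. RNA from a culture gives the mean over its cells, so fewer cells in S phase and less histone message per cell cannot be told apart.

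Summed over the 7 variant genes, the count was 25507, 29692 and 27516 in shlacZ, 19686 and 21609.7 under sh4, and 21901 and 21702 under sh8. Here the hairpins stood close together, at 74.9% of the shlacZ mean under sh4 and 79.1% under sh8. The ratio of the replication to the variant sum was 4.96, 4.89 and 4.99 in shlacZ, 4.02 and 3.53 under sh4, and 4.40 and 5.39 under sh8. Both sh4 libraries thus lay under the narrow range of the controls, whereas the sh8 libraries lay on either side of it. H2AZ1 had the highest count of the 7 genes and made up most of the drop of the variant sum under both hairpins. The variant sum and this ratio therefore largely follow H2AZ1, and a ratio without it was not computed. The mean ratio was 4.94 ± 0.0511 (SD, n = 3), 3.78 ± 0.348 (SD, n = 2) and 4.90 ± 0.696 (SD, n = 2).

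**Figure D1:**
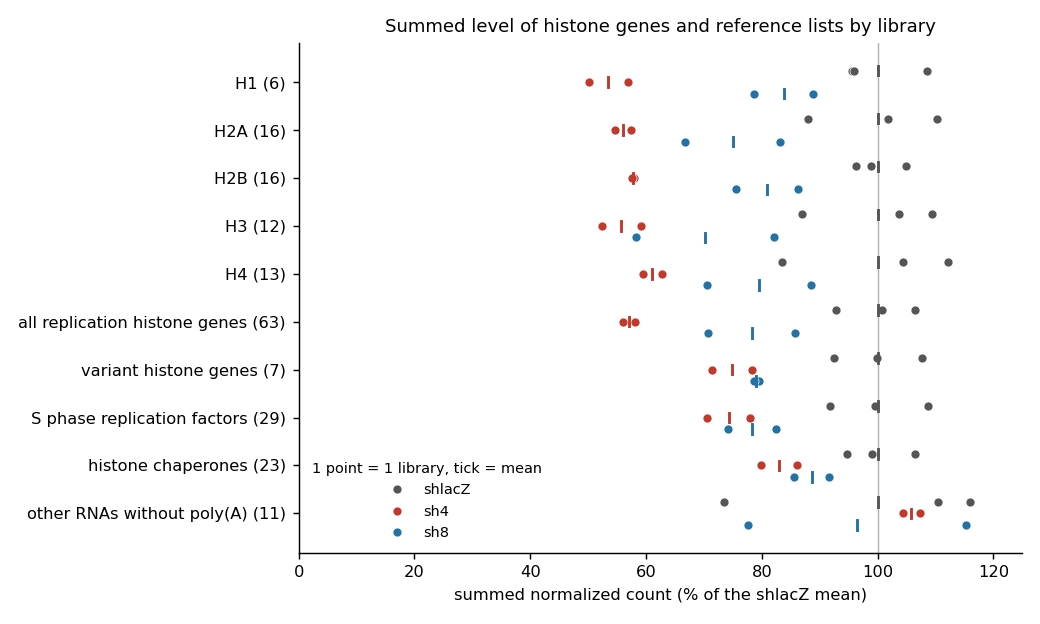
Summed normalized count of each replication histone family, of all replication and variant histone genes and of 3 other gene lists, in percent of the shlacZ mean (x axis). Points are libraries (shlacZ n = 3, sh4 n = 2, sh8 n = 2), ticks are means, and numbers in brackets are genes summed. The replication sum lay at 57.1% under sh4 and 78.3% under sh8, and the variant sum at 74.9% and 79.1%.

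The 5 replication families lay at similar levels under sh4. The H1 sum was at 53.4% of shlacZ, H3 at 55.7%, H2A at 56.1%, H2B at 57.8% and H4 at 61.1%. Under sh8 they lay higher, from 70.2% for H3 to 83.7% for H1, with H4 at 79.5% and H2B at 80.9%. Of the replication sum, H2B, the largest family, made up 31.7% ± 0.983 in shlacZ, 32.1% ± 0.679 under sh4 and 32.8% ± 1.38 under sh8. The sh4 libraries and the second sh8 library lay within the shlacZ range of 31.1% to 32.8%, and the first sh8 library above it, at 33.8%. H1 made up 15.5% ± 2.22, 14.4% ± 0.910 and 16.5% ± 0.838.

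Gene by gene, 47 of the 62 replication genes fell under sh4 in limma (adjusted p under 0.05) and 0 rose, against 11.9% of all genes tested that fell and 10.5% that rose. At an unadjusted p under 0.05, 52 were lower and 0 higher. The median log2 fold change was -0.81 (range -2.52 to 0.27), where the median of all 15420 genes tested was -0.01. The lower end of the range was H2AC19, which has a near-identical copy and did not pass, and the deepest passing fall was -1.59 (H4C13). In 54 of the 62, both sh4 libraries lay under all 3 shlacZ libraries, against 25.6% of all genes. With the further limit of a log2 fold change under -1, 13 of the 62 passed, against 3.37% of all genes. By family, 3 of 5 H1, 14 of 16 H2A, 13 of 16 H2B, 8 of 12 H3 and 9 of 13 H4 genes fell.

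Among the variants, 2 of 6 fell under sh4 and 0 rose, with a median log2 fold change of -0.26 (range -1.04 to 0.29). The fit without the first or the second sh4 library gave 31 and 28 replication genes that fell, and 25 of the 49 histone genes that fell did so in each of the 7 fits without 1 library. Without the first shlacZ library, 50 replication genes fell. The variant count was 3 without the first shlacZ library and 1 on leaving out any 1 of the sh4 libraries and shlacZ replicates 2 and 3. Quantile normalization moved the variant median to -0.13.

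**Figure D2:**
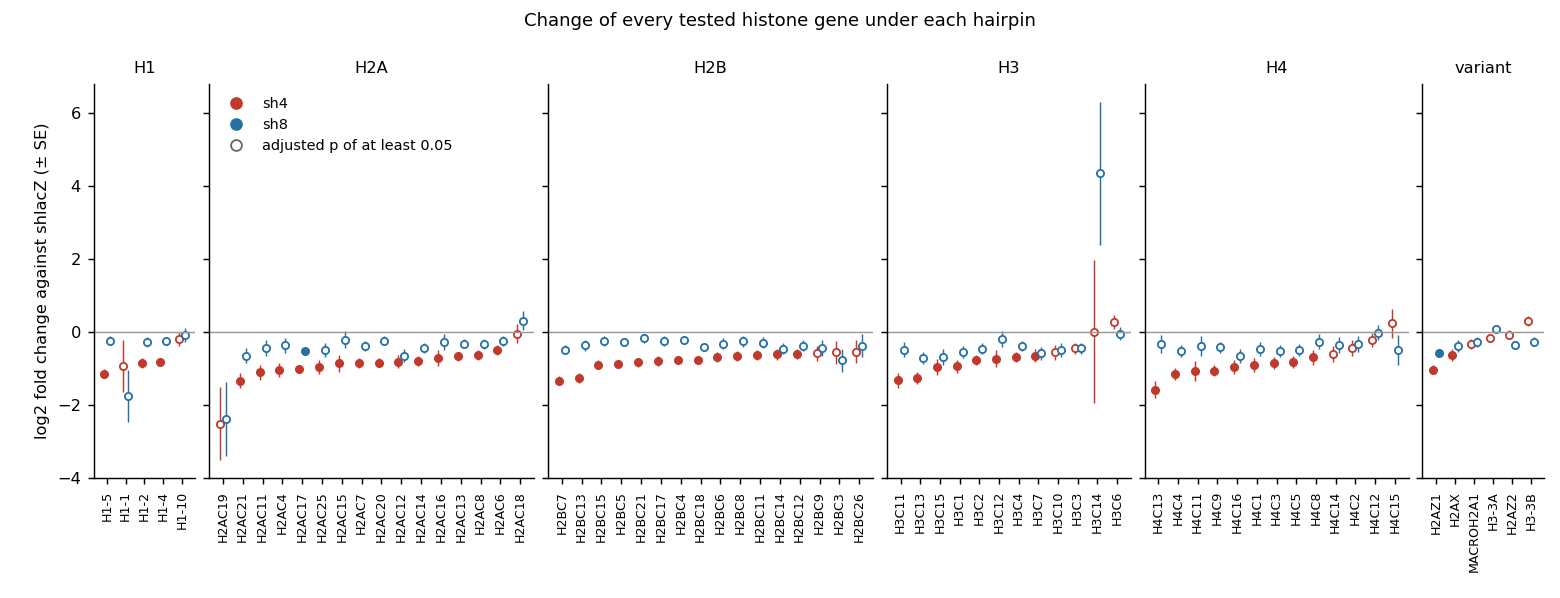
Log2 fold change against shlacZ (y axis, bars are the SE of the limma fit) of the 68 tested histone genes, ordered within each family by their value under sh4. Red is sh4, blue is sh8, and open points did not pass the adjusted p of 0.05. Filled red points lie below 0 in all 5 families, and the wide bars of H2AC19 and H3C14 belong to genes with near-identical copies.

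The linker histones H1-2, H1-4 and H1-5 held most of the H1 signal, since the 3 genes with the highest counts took 96.9% of the family sum in shlacZ. Values by library are normalized counts throughout. H1-5 had 6868, 5986 and 6451 in the shlacZ libraries, 3180.2 and 2649 under sh4, and 4998 and 5876 under sh8. Both sh4 libraries lay under the sh8 libraries, and those under the controls. Under sh4 it fell (log2 fold change -1.15 ± 0.13 SE, with an adjusted p of 0.000398), and under sh8 it did not pass (log2 fold change -0.25 ± 0.13 SE, with an adjusted p of 0.353). H1-2 had 8259, 7039.7 and 7129.9 in the shlacZ libraries, 4486 and 3806 under sh4, and 5693 and 6587 under sh8, and fell under sh4 (log2 fold change -0.85 ± 0.13 SE, with an adjusted p of 0.00182). H1-4 had 6832, 6448 and 5963 in the shlacZ libraries, 3632 and 3568 under sh4, and 5249 and 5536 under sh8, with the sh4 libraries close to each other and far under the rest (sh4 against shlacZ, log2 fold change -0.83 ± 0.11 SE, with an adjusted p of 0.000864).

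H1-10 stood apart from these linker genes. Its count was 768, 537 and 549 in the shlacZ libraries, 603 and 463 under sh4, and 552 and 602 under sh8, so that the groups overlapped. The log2 fold change was -0.20 under sh4 (95% interval -0.63 to 0.22, adjusted p 0.477). H1-1 was low, with 22.7, 11.5 and 18.3 in the shlacZ libraries, 11.3 and 5.97 under sh4, and 1.32 and 10.9 under sh8. H1-6 had 1.13 to 8.38 normalized counts over all libraries.

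H2A genes pair with H2B in the core. By level per kb of the canonical transcript in shlacZ, H2AC11 was the highest H2A gene with 7349 normalized counts per kb, next to the near-identical H2AC18 and H2AC19 described with the gene copies. H2AC11 had 2624, 4133 and 4113 in the shlacZ libraries, 1664 and 1613 under sh4, and 2184 and 3119 under sh8. The first control library was low here, yet both sh4 libraries lay under it (sh4 against shlacZ, log2 fold change -1.11 ± 0.21 SE, with an adjusted p of 0.00528). H2AC21 showed the deepest passing fall of the family, with 907, 1222 and 1288 in the shlacZ libraries, 505 and 389.6 under sh4, and 602 and 840.0 under sh8 (log2 fold change -1.34 ± 0.20 SE, with an adjusted p of 0.00172). H2AC17 was the replication gene that passed under both hairpins, with 2317, 2492 and 2312 in the shlacZ libraries, 1133 and 1203 under sh4, and 1580.4 and 1696 under sh8. Its log2 fold change was -1.02 under sh4 (adjusted p 0.000327). Against the same controls, sh8 gave -0.53 (adjusted p 0.0339). Of its 100-base stretches, 63.7% also occur in a transcript of the neighbouring H3C12, so its reads are less certain.

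H2B was the family with the highest summed count. H2BC12, at 12036 normalized counts per kb in shlacZ, had 5181, 6841 and 5851 in the shlacZ libraries, 3709 and 4115 under sh4, and 4275 and 4848 under sh8 (sh4 against shlacZ, log2 fold change -0.60 ± 0.14 SE, with an adjusted p of 0.0127). H2BC4 had 5289, 5240.2 and 5096 in the shlacZ libraries, 2905 and 3181 under sh4, and 4410.4 and 4504 under sh8, with controls close together and both sh4 libraries far below (log2 fold change -0.78 ± 0.10 SE, with an adjusted p of 0.00096). H2BC18, on chromosome 1, had 4977, 5424 and 5272 in the shlacZ libraries, 3222 and 2896 under sh4, and 3736 and 4009 under sh8 (log2 fold change -0.77 ± 0.11 SE, with an adjusted p of 0.00127). The deepest falls of the family were those of H2BC7 and H2BC13. H2BC7 had 2029, 2205 and 2050.4 in the shlacZ libraries, 848 and 797 under sh4, and 1373 and 1604 under sh8, and its mean under sh4 was 39.3% of shlacZ (log2 fold change -1.35 ± 0.12 SE, with an adjusted p of 0.000117). H2BC13 had 1456, 1323 and 1475 in the shlacZ libraries, 615 and 561 under sh4, and 944 and 1272 under sh8 (log2 fold change -1.27 ± 0.15 SE, with an adjusted p of 0.000484). Neither of these genes shares a 100-base stretch with another annotated gene.

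Octamer and no-octamer promoters were set side by side within H2A and H2B. Of 22 tested genes with the octamer, 20 fell under sh4, with a median log2 fold change of -0.77. Of 9 without it, 6 fell, with a median of -0.90, where 11.9% of all genes tested fell. Those of the 9 that did not pass were H2BC26 (-0.55, adjusted p 0.243 by limma) and the near-identical copies H2AC18 and H2AC19. The sum of these copies did fall (-0.71, adjusted p 0.00757 by limma), so the counts of the split are not read as an effect of the octamer. In 10 of the 11 divergent pairs of an H2A and an H2B gene both genes fell under sh4. Over all 13 pairs, with that of H3C12 and H2BC17 counted, both fell in 11 and 1 gene did in 2. Within a pair the values still differed, by a median of 0.22 on the log2 scale and by up to 0.59, between H2BC13 (-1.27) and H2AC13 (-0.68). H2BC7 (-1.35) and H2AC7 (-0.86), which share the stretch shown above, differed by -0.49. Both H2A genes share sequence with other genes, H2AC13 in 58.8% of its 100-base stretches with H2AC14 and H2AC7 in 82.0% with ENSG00000282988, so their reads could be split between copies. The pairs were not tested as pairs, and genes of a pair are not replicates.

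H3 carries the tail that receives many of the known methyl and acetyl marks. H3C2 had 3650.4, 4424 and 4152 in the shlacZ libraries, 2410.0 and 2356 under sh4, and 2556 and 3409 under sh8 (log2 fold change -0.77 ± 0.14 SE, with an adjusted p of 0.00482). Both sh8 libraries lay between the controls and sh4. H3C13 had 1097, 1466 and 1363 in the shlacZ libraries, 601 and 486 under sh4, and 704 and 887 under sh8, and fell under sh4 (log2 fold change -1.26 ± 0.17 SE, with an adjusted p of 0.000983). H3C4 had 2228, 2359.8 and 2301 in the shlacZ libraries, 1549 and 1278 under sh4, and 1559 and 1948 under sh8 (log2 fold change -0.71 ± 0.14 SE, with an adjusted p of 0.00563), but 96.0% of its 100-base stretches also occur in another annotated gene. H3C6, named here after its values were seen, was level or higher, with 145 to 163 normalized counts over the shlacZ and sh8 libraries and 163 and 211 under sh4. Its difference did not pass (log2 fold change 0.27, 95% interval -0.15 to 0.69), and it is one of the genes without a match to the stem-loop pattern.

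H4 genes, which encode the same core protein, ranged from 238 (H4C15) to 12859.5 (H4C12) normalized counts per kb in shlacZ. Both of these have near-identical copies, so the ends of this range could depend on how reads were split between copies. H4C4 had 1823, 1811 and 1936 in the shlacZ libraries, 978 and 702 under sh4, and 1132 and 1445 under sh8 (log2 fold change -1.16 ± 0.16 SE, with an adjusted p of 0.00118). H4C13 had the deepest passing fall of all histone genes under sh4, with 111, 137 and 163 in the shlacZ libraries, 41.8 and 47.0 under sh4, and 101.5 and 113 under sh8, that is 32.4% of the shlacZ mean (log2 fold change -1.59 ± 0.24 SE, with an adjusted p of 0.00153). It too has no match to the stem-loop pattern, so the replication genes without a match gave -1.59, 0.27 and -0.20 for H4C13, H3C6 and H1-10, and 1 of 3 passed. Of the 59 tested genes with the stem-loop, 46 fell, with a median of -0.82. The low count of H4C13 leaves it more open to counting error than its neighbours.

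The chromosome 6 cluster and the chromosome 1 cluster gave like medians. Under sh4, 39 of 47 tested genes on chromosome 6 fell, with a median of -0.80, where 11.9% of all genes tested fell. In the first cluster on chromosome 1, 6 of 11 did, with a median of -0.84. The summed count lay at 57.2% of shlacZ for chromosome 6 and at 56.1% for this part of chromosome 1. Near-identical genes lie in both, but they weigh more on the counts of chromosome 1. There the 5 genes that did not pass, H2AC18, H2AC19, H3C14, H4C14 and H4C15, all have near-identical copies. On chromosome 6, 8 genes did not pass, among them the copy H4C12.

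Near-identical copies were hard to tell apart. H2AC18 and H2AC19 share over 99% of their 100-base stretches, and single values swung between libraries. H2AC18 had 2876, 2084 and 4351 in the shlacZ libraries, 2381 and 3448 under sh4, and 3902 and 3443 under sh8. H2AC19 had 2466, 5004 and 1677 in the shlacZ libraries, 1503 and 151 under sh4, and 170.0 and 1586 under sh8. H2AC18 took from 29.4% to 95.8% of the sum of both copies. That sum was 5342, 7088 and 6029 in shlacZ, 3884 and 3599 under sh4, and 4072 and 5029 under sh8, and fell under sh4 (log2 fold change -0.71 ± 0.15 SE, with an adjusted p of 0.00757). Neither copy passed alone.

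H3C15 had 6235, 9148 and 8352 in the shlacZ libraries, 4404 and 3659 under sh4, and 3807 and 6065 under sh8, the highest level per kb of the replication genes in shlacZ as listed (15274). All of its 100-base stretches also occur in H3C14, so this level could hold reads of both copies. H3C15 fell under sh4 (log2 fold change -0.96 ± 0.21 SE, with an adjusted p of 0.011). Its copy H3C14 was listed at 0 in 6 libraries and at 411 in the first sh8 library, and a fold change is not read from such values. H4C12 had 3716, 6464 and 4749.8 in the shlacZ libraries, 3979.8 and 4335 under sh4, and 5098 and 4469 under sh8. Its copy H4C11 had 4311, 3334 and 4741 in the shlacZ libraries, 2116 and 1785 under sh4, and 2094 and 4577 under sh8. H4C11 was near H4C12 in the second sh8 library and at less than its level in the other knockdown libraries. The sum of both fell under sh4 (log2 fold change -0.57 ± 0.14 SE, with an adjusted p of 0.0153), whereas alone H4C11 passed (-1.07, adjusted p 0.0214) and H4C12 did not (-0.22, adjusted p 0.456). H4C14 had 3052, 5111 and 4588 in the shlacZ libraries, 2594 and 2828 under sh4, and 2738 and 3763 under sh8, and with its copy H4C15 it did not pass (-0.59, adjusted p 0.0698). With copies summed, 48 replication entries fell under sh4. Among the 49 tested genes with at most 50% of their 100-base stretches shared, 40 fell, with a median of -0.83.

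The variants were then taken one at a time. H2AZ1, one of a pair of H2A.Z genes, was the most abundant variant gene per kb (12793 in shlacZ). Its normalized count was 10134, 12059 and 11043 in the shlacZ libraries, 5268 and 5489 under sh4, and 7305 and 7404 under sh8. The libraries of each group lay close together and the groups did not overlap. It fell under sh4 (log2 fold change -1.04 ± 0.11 SE, with an adjusted p of 0.000337) and under sh8 (log2 fold change -0.59 ± 0.11 SE, with an adjusted p of 0.0262). The other H2A.Z gene, H2AZ2, had 3539, 3989 and 3727 in the shlacZ libraries, 3333 and 3744 under sh4, and 3099 and 2732 under sh8. Its log2 fold change was -0.09 under sh4 (95% interval -0.35 to 0.18) and -0.36 under sh8 (95% interval -0.63 to -0.10, adjusted p 0.135), and neither passed.

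H2AX, the variant that is phosphorylated beside DNA breaks and whose message can end in a stem-loop, had 955, 1391 and 1307 in the shlacZ libraries, 709 and 841 under sh4, and 896 and 930.1 under sh8. All knockdown libraries lay under all controls, and it fell under sh4 (log2 fold change -0.64 ± 0.17 SE, with an adjusted p of 0.0246) but did not pass under sh8 (log2 fold change -0.40 ± 0.17 SE, with an adjusted p of 0.254). H2AX and H2AZ1 were the variants that fell under sh4.

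H3-3A and H3-3B encode the same H3.3 protein, yet their values differed in direction under the hairpins. H3-3A had 4979, 5054 and 4909.9 in the shlacZ libraries, 4331 and 4439 under sh4, and 5059 and 5379.5 under sh8. H3-3B had 2859, 3444 and 3248 in the shlacZ libraries, 3554 and 4238 under sh4, and 2562 and 2697 under sh8. Under sh4, H3-3A lay below and H3-3B above the controls, and under sh8 the order was the opposite. None of these values passed against shlacZ, with log2 fold changes of -0.18 and 0.29 under sh4 (adjusted p 0.23 for H3-3A and 0.132 for H3-3B). Under sh8 they were 0.07 and -0.27 (adjusted p 0.776 for H3-3A and 0.293 for H3-3B). H3-3B was higher under sh4 than under sh8 (log2 fold change 0.56 ± 0.14 SE, with an adjusted p of 0.0408). Of the 100-base stretches of H3-3A, 64.3% also occur in other annotated genes.

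MACROH2A1, the large H2A variant with a macro domain, had 3042, 3752 and 3281 in the shlacZ libraries, 2485 and 2856 under sh4, and 2978 and 2557 under sh8, and did not pass under sh4 (log2 fold change -0.33 ± 0.13 SE, with an adjusted p of 0.106) or under sh8 (log2 fold change -0.28 ± 0.13 SE, with an adjusted p of 0.306). MACROH2A2 was at 0 in the first and the third shlacZ library and at most 5.65 elsewhere, which is too low to compare. CENPA, the centromeric H3 that the symbols used here do not cover, had 495, 609 and 579 in the shlacZ libraries, 394 and 509.8 under sh4, and 477 and 486 under sh8, and did not pass (sh4 against shlacZ, -0.32, adjusted p 0.185).

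**Figure D3:**
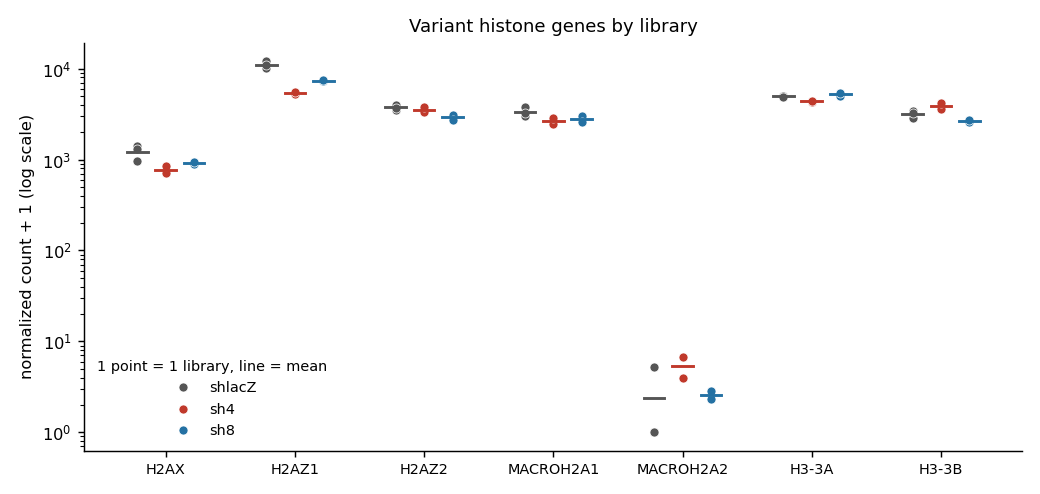
Normalized count + 1 (y axis, log scale) of the 7 variant histone genes in each library. Points are libraries and lines are group means (shlacZ n = 3, sh4 n = 2, sh8 n = 2). H2AZ1 steps down from shlacZ through sh8 to sh4, and H3-3B is the gene with sh4 above both other groups among the 6 tested.

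The second hairpin gave lower values in most replication genes, but 1 passed. Under sh8, 1 of 62 replication genes fell (H2AC17) and 0 rose, against 1.54% of all genes tested that fell and 1.38% that rose. At an unadjusted p under 0.05, 34 were lower and 0 higher. The median log2 fold change was -0.38, 60 of 62 values lay below 0, and in 42 of 62 both sh8 libraries lay under all controls, against 17.9% of all genes. Of the variants, 1 of 6 fell (H2AZ1), with a median of -0.32.

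The sh8 libraries differed from each other. The first lay under the second in 57 of 62 replication genes, and the second lay within the range of the controls in 18 genes and the first in 6. Without the first sh8 library the median was -0.21, and without the second it was -0.56. Without the first shlacZ library 17 replication genes and 2 variants passed, and without any other single library 0 did in either arm. The sh8 and sh4 values share the same control libraries, and a gene that passes under sh4 and not under sh8 is not thereby shown to differ.

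The difference between the hairpins was tested directly. Against sh8, 12 of 62 replication genes were lower under sh4 and 0 were higher, against 3.33% of all genes tested that were lower and 3.67% that were higher. The median difference was -0.38, and in 43 of 62 both sh4 libraries lay under both sh8 libraries, against 27.6% of all genes. Among those that passed, the largest differences were in H4C13 (-1.25, adjusted p 0.0189), H1-5 (-0.90, adjusted p 0.00631) and H2BC13 (-0.90, adjusted p 0.011). By family, 3 of 5 H1, 6 of 16 H2B, 2 of 16 H2A, 1 of 13 H4 and 0 of 12 H3 genes passed. Of the variants, 1 of 6 passed, H3-3B, which was higher under sh4. The count of replication genes was 21 without the first shlacZ library, 5 without the first and 0 without the second sh4 library, and 5 without the first and 1 without the second sh8 library. The variant count was 2 without the first shlacZ library and 0 without any other single library.

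With both hairpins pooled (n = 4) against shlacZ (n = 3), as the study pools them, 13 of 62 replication genes and 1 of 6 variants fell and 0 rose, against 2.06% of all genes tested that fell and 2.55% that rose. H2AC21 (adjusted p 0.0443), H3C13 (-0.99, adjusted p 0.0279) and H4C4 (-0.85, adjusted p 0.0478) fell most. The variant was H2AZ1 (-0.81, adjusted p 0.0234). The medians were -0.57 and -0.26. The replication count was 30 without the second sh8 library, and 0 without the second or the third shlacZ or the first sh4 library, and 1 without the second sh4 library. The variant count was 2 without the first shlacZ library and 0 on leaving out any 1 of the sh4 libraries and shlacZ replicates 2 and 3.

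**Figure D4:**
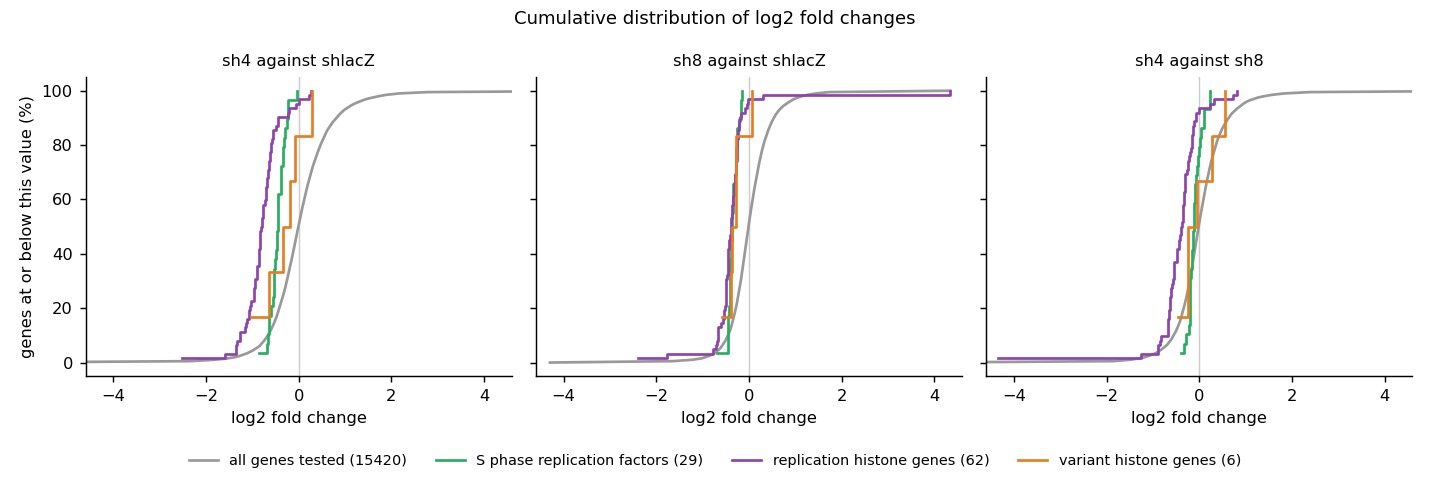
Percent of genes (y axis) at or below each log2 fold change (x axis) for all 15420 genes tested, 62 replication and 6 variant histone genes and 29 S phase replication factors, in 3 comparisons. The replication curve has its median at -0.81 under sh4, left of the S phase list at -0.46, and under sh8 the medians are -0.38 and -0.36.

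Genes that make and shorten histone messages were then examined, from a list of 22. Under sh4, 7 fell and 0 rose, with a median of -0.28, where 11.9% of all genes tested fell, and under sh8 1 fell, against 1.54% of all genes, with a median of -0.12. NPAT, which organises the histone gene bodies, had 2009, 1738 and 2011 in the shlacZ libraries, 1639.8 and 1494 under sh4, and 2062 and 1893 under sh8 (sh4 against shlacZ, log2 fold change -0.29 ± 0.12 SE, with an adjusted p of 0.113). SLBP, which binds the stem-loop, had 869, 1013 and 938 in the shlacZ libraries, 702 and 822 under sh4, and 833 and 701 under sh8 (log2 fold change -0.30 ± 0.14 SE, with an adjusted p of 0.153). CASP8AP2, a partner of the U7 particle, had 2089, 1463 and 1656 in the shlacZ libraries, 1668 and 1555 under sh4, and 1839 and 1566 under sh8, and the groups overlapped (sh4 against shlacZ, -0.09, 95% interval -0.45 to 0.26). None of these 3 passed.

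CDK2, the kinase that phosphorylates NPAT with cyclin E, had 14681, 13195 and 12973 in the shlacZ libraries, 7297 and 6363 under sh4, and 8640.3 and 8670.4 under sh8, and fell under sh4 (log2 fold change -0.997 ± 0.12 SE, with an adjusted p of 0.000485) and under sh8 (log2 fold change -0.65 ± 0.12 SE, with an adjusted p of 0.0191). CCNE1, a cyclin E gene, had 290.0, 341 and 339 in the shlacZ libraries, 152 and 179 under sh4, and 268 and 217 under sh8, and fell under sh4 (log2 fold change -0.96 ± 0.18 SE, with an adjusted p of 0.00456). LSM11, a protein of the U7 particle, had 285, 292 and 319 in the shlacZ libraries, 181 and 195 under sh4, and 268 and 373 under sh8. It fell under sh4 (log2 fold change -0.67 ± 0.18 SE, with an adjusted p of 0.026), while the sh8 libraries lay on either side of the controls. POU2F1, which binds the octamer, had 2484, 1996 and 2041 in the shlacZ libraries, 1382 and 1363 under sh4, and 2062 and 2242 under sh8. It fell under sh4 (log2 fold change -0.66 ± 0.13 SE, with an adjusted p of 0.00596), lay among the controls under sh8 (-0.01, adjusted p 0.98), and was lower under sh4 than under sh8 (-0.65, adjusted p 0.0235). The other genes of this list that fell under sh4 were SRRT, UPF1 and YY1, with log2 fold changes of -0.60, -0.62 and -0.37.

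Of 23 histone chaperones and exchange factors, 6 fell and 1 rose under sh4, against 11.9% and 10.5% of all genes tested, and 0 passed under sh8 in limma, where 2 were lower at an unadjusted p under 0.05. CHAF1B, a subunit of the factor that deposits new H3 and H4 behind the fork, had 1437, 1576 and 1401 in the shlacZ libraries, 796 and 733 under sh4, and 1184 and 844 under sh8 (sh4 against shlacZ, log2 fold change -0.94 ± 0.16 SE, with an adjusted p of 0.00261). TONSL, which binds newly made H4, had 619, 797 and 632 in the shlacZ libraries, 411 and 343 under sh4, and 601 and 431 under sh8 (log2 fold change -0.85 ± 0.19 SE, with an adjusted p of 0.0101). SSRP1, a subunit of FACT, fell from 5122 ± 996 (SD, n = 3) to 3383 ± 543 (SD, n = 2, adjusted p 0.0323 by limma). CABIN1, a subunit of the HIRA complex that deposits H3.3, was the gene that rose, with 1476, 1356 and 1368 in the shlacZ libraries, 2305 and 2151 under sh4, and 1691 and 1633 under sh8 (log2 fold change 0.67 ± 0.11 SE, with an adjusted p of 0.00267).

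The S phase list was read beside the replication histones. All 29 replication factors had a log2 fold change below 0 under both hairpins, as did 7797 of all 15420 genes tested under sh4 and 7889 under sh8. Under sh4 12 fell, against 11.9% of all genes, with a median of -0.46. Under sh8 1 fell (CDC6), near the 1.54% of all genes that fell, with a median of -0.36. RFC3, a subunit of the clamp loader, had 1959, 2053 and 1954 in the shlacZ libraries, 1051 and 1158 under sh4, and 1587 and 1329.6 under sh8, and under sh4 its change was -0.85 on the log2 scale (adjusted p 0.00134). RFC4, of the same complex, had 1499, 1471 and 1493 in the shlacZ libraries, 888 and 1038 under sh4, and 1116 and 1096 under sh8, and a change of -0.63 (adjusted p 0.00483). In both genes all knockdown libraries lay under all controls. PRIM1, the primase, and GINS4, of the replicative helicase, fell by 0.68 and 0.64 on the log2 scale under sh4 (adjusted p 0.00444 and 0.00696).

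The summed count of the S phase list lay at 74.3% of shlacZ under sh4 and at 78.3% under sh8, against 57.1% and 78.3% for the replication histones. The ratio of the replication sum to the S phase sum was 2.24, 2.17 and 2.25 in the shlacZ libraries, 1.83 and 1.59 under sh4, and 1.91 and 2.57 under sh8. Both sh4 libraries lay under the controls, and the sh8 libraries lay on either side of them. The S phase genes lay below their control level beside the histone genes under both hairpins, and their part in the result was not tested.

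**Figure D5:**
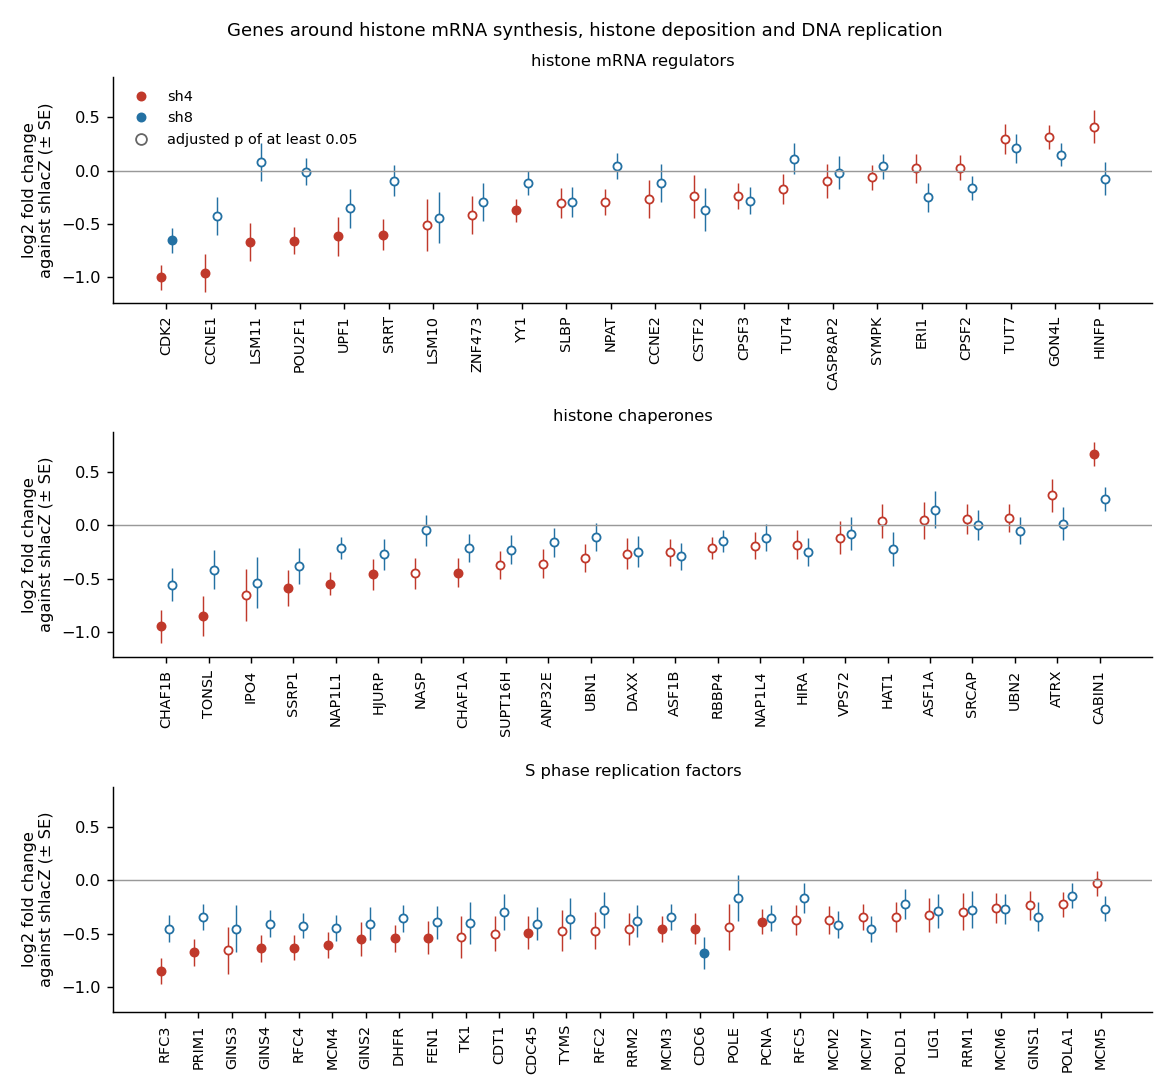
Log2 fold change against shlacZ (y axes, bars are the SE of the limma fit) of 22 histone mRNA regulators, 23 histone chaperones and 29 S phase replication factors, ordered by their value under sh4. Red is sh4, blue is sh8, and open points did not pass the adjusted p of 0.05. All 29 S phase factors lie below 0, and CABIN1 is the filled point above 0.

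Other RNAs without a long poly(A) tail were set beside the histone messages, by group and by library. Of 14 listed, 9 were tested, and 0 passed under sh4 or sh8 in limma, with 0 lower at an unadjusted p under 0.05. Their summed count lay at 105.8% of shlacZ under sh4 and at 96.4% under sh8. RN7SK, RN7SL1, RN7SL2, RMRP and SNORD3A, the most abundant of them, had log2 fold changes of 0.22, 0.03, -0.10, 0.43 and 0.11 under sh4. SCARNA2 was at 0 in 2 of the libraries and at up to 2035 in others, so that no change is read from it. The sums of this class varied more between libraries than those of the histone genes, from 364333 to 575003 within shlacZ. They were 364333, 575003 and 547716 in shlacZ, 517655 and 531580 under sh4, and 385025 and 570981 under sh8. Within shlacZ and within sh8 the libraries stood in the same order as in the replication histone sum, with the first library lowest. Between the sh4 libraries the order was the opposite. The part of such library differences in the histone values was not tested.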

How the data were processed

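RNA from 7 libraries was studied. By the study's methods, the authors trimmed adapters with Cutadapt, aligned reads to hg38 using STAR, estimated expression per gene by Salmon and passed the count matrix to DESeq2. Versions and the annotation release were not given in the sources used here. The authors deposited 1 table of normalized counts, that is gene counts divided by 1 size factor per library, with decimals written as commas. Because of that form the values were not treated as counts, and no negative binomial test was run. In 100% of the values, whole reads could be recovered (tolerance 0.01), which gave depth and an alternative test. The table held 0 columns of other samples.

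From it, limma 3.58.1 (R 4.3.3) with a variance trend was run on log2(normalized count + 1) for 15420 genes, two-sided, with Benjamini-Hochberg adjustment over all of them. Fold changes on that scale understate the change of low genes. Each hairpin and the difference between hairpins came from a fit with 3 groups, and the pooled comparison from a fit with 2 levels. A gene passed at an adjusted p under 0.05. The script was tested on simulated data. Scaling by size factors removes any change that most messages share.

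The members and gene lists were chosen with earlier results of these data known. Named were all variants and H1-10, the 3 highest genes per kb of each replication family, the 3 deepest falls and highest rises of each comparison, SLBP, NPAT and CASP8AP2, and up to 4 passing genes of each list. Genes named outside this rule, such as H3C6, H3C14, H1-1 and CENPA, were chosen after their values were seen. Stem-loops, lengths and shared 100-base stretches came from GENCODE 44 on hg38, and promoters from RefSeq. Some histone genes were not analysed here. Other settings tried were another pseudocount, another limit on low genes, upper quartile and quantile scaling, a constant prior variance, a replicate block, fits of the compared groups alone, limma-voom on recovered reads and each library left out. Summing gene copies and leaving out members with shared sequence were added after seeing the data.

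Replicate numbers were not taken to pair samples across groups.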

Additional observations from a re-analysis of the deposited data

Results flagged for a closer look

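Over the 4 knockdown libraries, 69 histone genes were examined for a library far from the others by the gap between the end value and its neighbour, divided by the range (Dixon's test at its critical value for 4 samples). In 4 of the 69 genes the gap was larger, which is close to the rate of about 1 in 20 that chance gives. That rate holds for libraries of 1 population, whereas these 4 libraries carry different hairpins. For H3C12 it was 0.8638, with the second sh8 library at 931 and the other 3 between 493 and 552. H3C14 gave 1, with 411 in the first sh8 library and 0 elsewhere. H4C11 gave 0.8811, with the second sh8 library at 4577 and the others between 1785 and 2116. H4C15 gave 0.8944, with the first sh8 library at 36.9 and the others between 109.7 and 118. The last 3 have near-identical copies, and for each the library that stands out is an sh8 library.

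The hairpins differed, by the direct limma test of sh4 against sh8, in 13 histone genes. The log2 difference of sh4 and sh8 was -0.5674 for H1-2, -0.5823 for H1-4 and -0.9007 for H1-5 among the linker histones. It was -0.4877 for H2AC17 and -0.6012 for H2AC20. In H2B it was -0.8976 for H2BC13, -0.645 for H2BC15, -0.6559 for H2BC21, -0.552 for H2BC4, -0.606 for H2BC5 and -0.8516 for H2BC7. It was -1.253 for H4C13, and 0.562 for H3-3B, the gene that was higher under sh4.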

How the results depend on the processing

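The count of replication genes that fell under sh4 lay between 38 and 48 in the settings that kept all 7 libraries. Its median stayed between -0.84 and -0.71 in all settings. When 1 library was left out, the counts of replication genes that fell ranged from 28 to 50 for sh4, from 0 to 17 for sh8, from 0 to 21 for sh4 against sh8 and from 0 to 30 for the pooled comparison. For variants that passed the ranges were 1 to 3, 0 to 2, 0 to 2 and 0 to 2. Medians of the replication genes then ranged from -0.56 to -0.21 for sh8 and from -0.54 to -0.25 for sh4 against sh8, and the variant median for sh4 against sh8 from -0.21 to -0.034. With fewer libraries, an arm with 1 library is assumed to vary like the other groups.

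Without the variance trend, the replication counts were 38 for sh4, 0 for sh8, 3 for sh4 against sh8 and 0 for the pooled comparison, and the variant counts 1, 0, 0 and 0. Over all genes, 1217, 29, 195 and 45 were then lower, against 1840, 238, 513 and 318 with the trend. With the libraries of the compared groups alone, the sh8 counts were 0 and 0, and without members of shared sequence the sh8 replication count was 0. Upper quartile scaling gave 2 variants in sh4 against sh8, and quantile normalization gave a variant median of -0.13 under sh4.

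With the replicate number as a block, 47, 1, 16 and 0 replication genes and 2, 1, 2 and 0 variants passed in sh4, sh8, sh4 against sh8 and the pooled comparison. The deviations of replicates 1 and 2 correlated at 0.31 between sh4 and shlacZ and at 0.034 between sh8 and either group, and since the labels tie no samples across groups and the correlation was above 0.1 in only 1 of the 3 pairs of groups, the samples were treated as sharing only a number. A call lost under the block is not read as a weaker effect.

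Single genes were followed in 58 gene and comparison pairs. Of 1030 recomputed values 828 stayed on their side of the threshold, 202 no longer passed and 0 changed sign. The cause of these losses was not tested, although fits without a library have fewer samples. Another scaling moved the median of all genes by less than 0.1. Low counts limit H1-1, H1-6, H4C13 and MACROH2A2, and shared sequence limits the copies.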
